A study of Mus musculus with 10 samples.

Results

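Adult neurogenesis and proliferation were followed through 10 genes that mark newborn neurons or dividing cells in the hippocampus, out of the 43629 genes in the count table. They were taken by name, through the Ensembl gene IDs that carry these symbols in the annotation of the mouse genome GRCm38: the transcription factors Eomes, Neurod1, Sox11 and Sox4, the immature neuron proteins Dcx, Draxin and Igfbpl1, and the division genes Mki67, Top2a and Ccnd2. RNA sequencing had been carried out on the whole hippocampus of 5 WT and 5 Dp1Tyb mice, with 1 library for each mouse. The labels give all 10 mice as 18 weeks old, an age slightly below the range in the methods, and the strain as C57BL/6J.129P2. The methods describe them as male littermates. Dp1Tyb mice, with the genotype Dp(16Lipi-Zbtb21)1TybEmcf, model Down syndrome through an extra copy of the stretch of chromosome 16 that begins at Lipi and ends at Zbtb21, present in every cell from conception. WT mice lack the duplication. None of the 10 genes lies in the duplicated segment, which runs from 75540514 to 97962622, so the question was whether genes of adult neurogenesis that stay at their normal copy number are expressed at other levels in the presence of the duplication.

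New granule neurons are added to the dentate gyrus of the mouse hippocampus throughout adult life. Radial stem cells in its subgranular zone give rise to dividing progenitors that express Eomes (Tbr2), then to neuroblasts and immature neurons that express Neurod1, the related SoxC factors Sox4 and Sox11, and doublecortin (Dcx). Mki67 and Top2a are transcribed in cells that are in S, G2 or M phase, and cyclin D2 (Ccnd2) drives progenitors through G1. These cells are few among the mature neurons and glia of an adult hippocampus, and their number declines with age. In whole tissue, fewer cells of a type and less RNA per cell cannot be told apart.

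The libraries held between 18227684 and 43692270 counted reads, a ratio of 2.4 between the deepest and the shallowest. Of 8 duplicated genes with a role in neurogenesis or division, 5 were called higher in Dp1Tyb (Dyrk1a, App, Rcan1, Dscam and Usp16), and the median log2 fold change of the 8 was 0.60, which checks the genotype labels. All 8 hippocampal markers were expressed in every library, with a summed level of 948 to 1117 CPM (reads scaled to a common library size) in WT and 956 to 1048 CPM in Dp1Tyb. Choroid plexus, a tissue that adjoins the hippocampus, varied widely between libraries: its 10 markers summed to between 806 and 8260 CPM in WT and between 191 and 5669 CPM in Dp1Tyb, with Dp1Tyb 1, Dp1Tyb 4 and WT 2 lowest. The main results are therefore also given without these 3 libraries, an alternative chosen after the data were seen.

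The DNA just before the start of transcription is shown for 3 of the genes: Mki67 and Top2a, which deviated together in some mice, and Sox11, which had the lowest p-value among the 10. Each is the 250 bases before the RefSeq start, read 5′ to 3′ on the strand of the gene, from GRCm38.p6. The window of Mki67 is chr7:135716380-135716629, that of Top2a chr11:99024190-99024439 and that of Sox11 chr12:27342719-27342968, all on the minus strand. Capitals mark CCAAT (the letters of the CCAAT box) and TTTGAA (the core of the cell cycle genes homology region) in Mki67 and Top2a, and CANNTG (the E-box, which factors such as Neurod1 recognise) in Sox11. Matches on either strand count, so that CCAAT may read ATTGG and TTTGAA may read TTCAAA, and no base is shared by different marked matches.
Mki67: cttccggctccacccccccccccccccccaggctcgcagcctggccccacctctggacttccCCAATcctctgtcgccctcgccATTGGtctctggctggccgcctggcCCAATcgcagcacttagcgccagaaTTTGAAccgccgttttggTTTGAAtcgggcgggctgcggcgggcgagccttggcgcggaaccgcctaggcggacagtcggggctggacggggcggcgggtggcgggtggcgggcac
Top2a: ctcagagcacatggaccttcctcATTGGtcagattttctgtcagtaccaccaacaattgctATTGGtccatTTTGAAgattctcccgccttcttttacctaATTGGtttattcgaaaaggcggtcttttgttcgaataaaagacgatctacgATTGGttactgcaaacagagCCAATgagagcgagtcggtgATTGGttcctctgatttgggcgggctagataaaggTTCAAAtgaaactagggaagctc
Sox11: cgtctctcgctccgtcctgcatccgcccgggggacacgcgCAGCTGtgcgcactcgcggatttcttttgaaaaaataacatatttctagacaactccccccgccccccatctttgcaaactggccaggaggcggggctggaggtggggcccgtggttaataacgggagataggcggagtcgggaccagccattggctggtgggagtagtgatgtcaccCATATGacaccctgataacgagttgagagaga
Mki67 held 3 matches to CCAAT and 2 to TTTGAA, and Top2a held 6 and 2, with 3 unmarked matches to CANNTG. Among all 32851 RefSeq windows of this length, 33.8% held CCAAT and 16.0% held TTTGAA. Sox11 held 2 matches to CANNTG, a pattern found in 66.2% of all windows, and 1 unmarked match each to CCAAT and TTTGAA. Its RefSeq start lies upstream of the start in the gene annotation used here. A match describes the letters and not a site in use. Of the 10 genes, 8 had such a window, and Ccnd2 and Igfbpl1 had none in the table. Of the others, Sox4 held 4 matches to CCAAT and Eomes 2, while Neurod1 and Draxin held no match to CCAAT or TTTGAA and 1 match each to CANNTG.

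Levels were first compared between the genes, which needs a scale per length. RPKM here is the CPM of a gene divided by the kilobases of its merged exons, and means are over all 10 mice. Ccnd2 was the most abundant at 7.74 ± 0.77 RPKM (SD, n = 10), followed by Neurod1 at 5.65 ± 0.55, Dcx at 2.09 ± 0.23, Sox4 at 1.27 ± 0.18 and Sox11 at 1.26 ± 0.18 RPKM. Mki67 stood at 0.503 ± 0.061, Igfbpl1 at 0.344 ± 0.076, Top2a at 0.244 ± 0.103, Draxin at 0.176 ± 0.037 and Eomes at 0.0841 ± 0.0427 RPKM. The order had 3 clear steps, in which the ranges over mice of neighbouring genes did not overlap: Neurod1 above Dcx, Dcx above Sox4, and Sox11 above Mki67. The other neighbours overlapped. Over all 10 mice Sox4 and Sox11 did not differ beyond their spread, and Sox4 was higher in 5 of them. These were WT 4 and all Dp1Tyb mice except Dp1Tyb 1, so the order of the 2 genes differed between the genotypes. Igfbpl1 exceeded Top2a in 8 mice, Top2a exceeded Draxin in 9 and Draxin exceeded Eomes in 9. Ccnd2 was above Neurod1, and Mki67 above Igfbpl1, within each of the 10 mice. Ccnd2 and Neurod1 are also expressed by mature hippocampal cells, so the top of this order does not count newborn neurons.

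**Figure D1:**
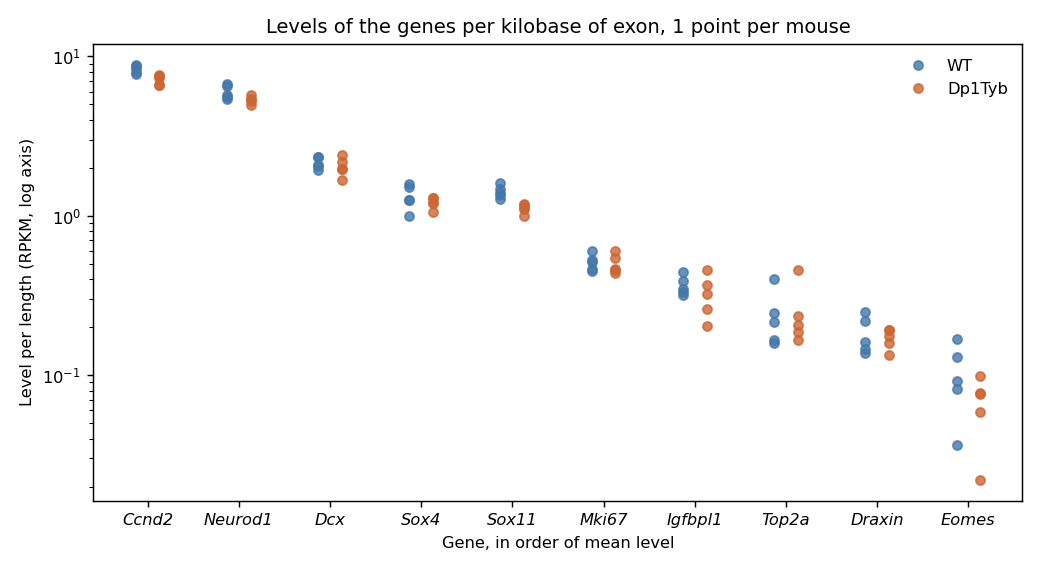
Level of each gene per length in RPKM (log axis), in order of the mean over mice, with 1 point for each of the 5 WT (blue) and 5 Dp1Tyb (orange) mice. The levels run from 7.74 RPKM for Ccnd2 to 0.0841 RPKM for Eomes. Sox4 and Sox11 lie at the same height in the mean over all mice, but not within each genotype.

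The genotypes were compared with edgeR on the whole count table, and a gene was called at an adjusted p under 0.05 over the 17237 genes tested. Of the 10 genes, 9 had enough reads to be tested and none was called, where 1.11% of all tested genes were called in either direction. Their log2 fold changes (Dp1Tyb minus WT) were below 0 for 8 and above 0 for 1, with a median of −0.14, and 51.3% of all tested genes were below 0, with a median of −0.0041. At an unadjusted p under 0.05 there were 3 of the 9 (Sox11, Ccnd2 and Neurod1), all lower in Dp1Tyb, where 6.4% of all tested genes were lower at that level. The WT and Dp1Tyb values did not overlap for Sox11 and Ccnd2, lower in Dp1Tyb, against 3.68% of all tested genes that separated in either direction and 1.12% that separated in that one. DESeq2, run on the same counts, called these 2 genes, and it called 3.2% of its genes, 1.04% as lower.

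**Figure D2:**
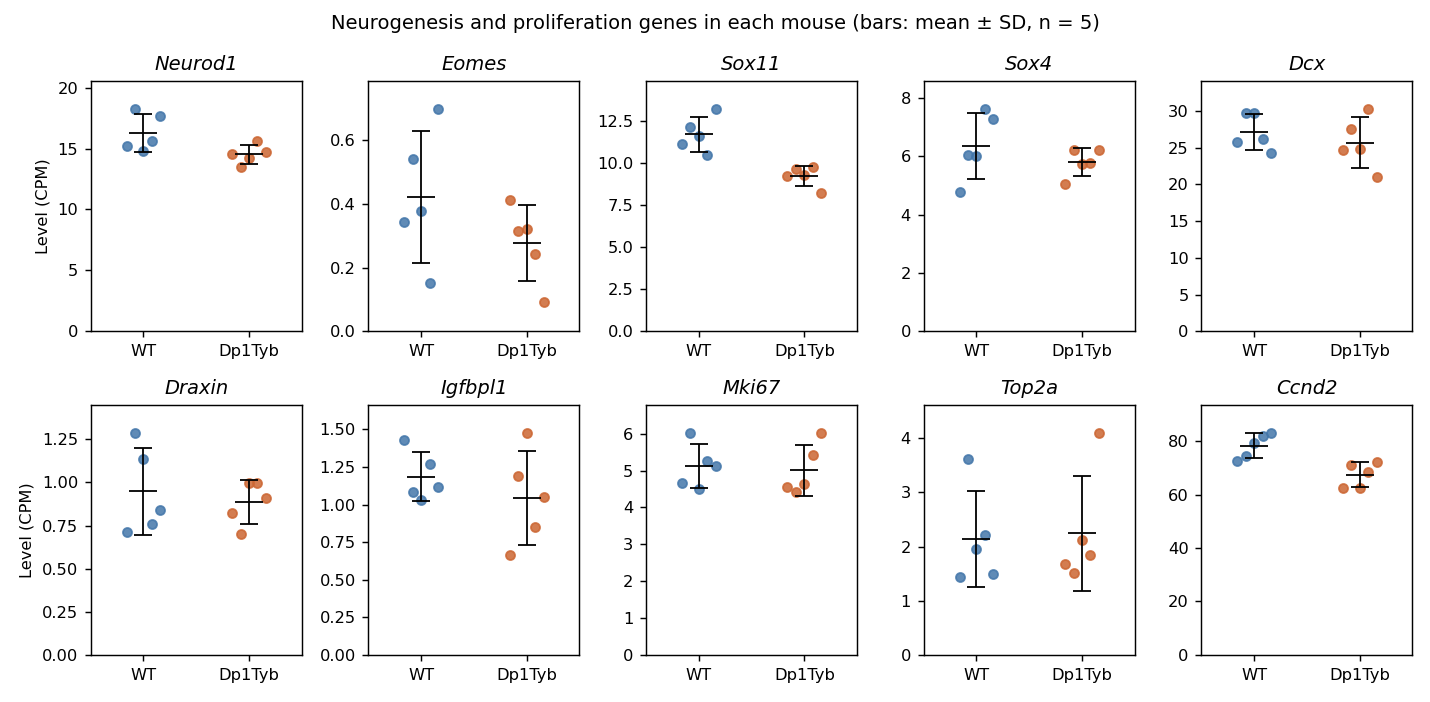
CPM of each gene in each mouse, with the genotype mean and SD as black bars (n = 5 per genotype) and every axis starting at 0. WT and Dp1Tyb points separate for Sox11 and Ccnd2 and overlap for the other 8 genes.

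Among the 3 differentiation factors that could be tested, Sox11 had the log2 fold change farthest from 0. Sox11 is a transcription factor of the SoxC group that switches on neuronal genes, among them Dcx, in committed neuroblasts. It lies on chromosome 12 (ENSMUSG00000063632, 27334264 to 27342574, minus strand). The WT libraries held 358, 292, 214, 347 and 284 Sox11 reads, in replicates 1 to 5, and the Dp1Tyb libraries 402, 276, 232, 323 and 181. In CPM these were 11.1, 12.1, 11.6, 10.5 and 13.2 in WT and 9.21, 9.66, 9.28, 9.78 and 8.26 in Dp1Tyb, so that the lowest WT mouse lay above the highest Dp1Tyb mouse. WT mice averaged 11.7 ± 1.04 CPM and Dp1Tyb mice 9.24 ± 0.60 CPM (SD, n = 5 each), a ratio of 0.791 with a 95% interval of 0.702 to 0.89. On the log2 scale this was −0.34 ± 0.079 (SE), with an adjusted p of 0.0614 in edgeR, just above the threshold, and 0.00967 in DESeq2. Over all alternatives the adjusted p ran from 0.00967 to 0.238, and leaving out any 1 mouse kept the difference between −0.38 and −0.29. With the choroid plexus score as a covariate it was −0.36, and without the 3 libraries lowest in choroid plexus markers it was also −0.36, with an adjusted p of 0.238.

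Sox4, the closest relative of Sox11 among the 10, lies on chromosome 13 (ENSMUSG00000076431, 28948919 to 28953713, minus strand) and overlaps a lincRNA, Gm26735, on the other strand. Its counts were 154, 145, 111, 252 and 156 in WT and 220, 178, 143, 190 and 136 in Dp1Tyb. The WT mice spread from 4.79 to 7.63 CPM and enclosed the Dp1Tyb mice, which lay between 5.04 and 6.23 CPM. Its log2 fold change was −0.14 ± 0.12 (SE), with an interval of −0.40 to 0.13 and an adjusted p of 0.639. Sox12, the remaining SoxC gene and not among the 10, averaged 27.4 ± 2.19 CPM in WT mice and 22.9 ± 0.947 CPM (SD, n = 5 each) in Dp1Tyb mice, with a log2 fold change of −0.26 ± 0.061 (SE) and an adjusted p of 0.0653 in edgeR. The 5 Dp1Tyb mice lay between 22.2 and 24.5 CPM, below 4 of the WT mice, and the lowest WT mouse, WT 1, was at 24.2 CPM. Without WT 1 the adjusted p was 0.0285, the only fit leaving out 1 mouse in which Sox12 was called, and DESeq2 gave 0.0102.

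Neurod1 is a bHLH factor needed for granule neurons to form and survive. It lies on chromosome 2 (ENSMUSG00000034701, 79452521 to 79456751, minus strand), within the span of Cerkl on the same strand and of the lincRNA Gm26755 on the other. Its exons overlap exons of both genes, and strand does not tell its reads from those of Cerkl. The counts of Neurod1 were 489, 439, 273, 515 and 379 in WT and 634, 386, 356, 515 and 322 in Dp1Tyb. WT mice had between 14.8 and 18.3 CPM, and Dp1Tyb mice between 13.5 and 15.6 CPM. The groups overlapped, and WT 2 and WT 5, at 18.3 and 17.7 CPM, made up the upper end. The log2 fold change was −0.17 ± 0.073 (SE), with an interval of −0.33 to −0.0088 and an adjusted p of 0.325. Its relatives Neurod2 and Neurod6, which are abundant in mature pyramidal neurons, differed by −0.31 ± 0.11 (SE) and 0.15 ± 0.048 on the log2 scale, with adjusted p-values of 0.209 and 0.176.

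Eomes, the T-box factor of intermediate progenitors, was close to the detection limit of these libraries. It lies on chromosome 9 (ENSMUSG00000032446, 118478212 to 118486132, plus strand), and its exons overlap the antisense gene Gm33460. The WT libraries held 11, 13, 7, 5 and 15 reads, and the Dp1Tyb libraries 18, 9, 8, 8 and 2. This is 0.15 to 0.70 CPM in WT and 0.09 to 0.41 CPM in Dp1Tyb, with the groups overlapping. Eomes was removed by the filter on low counts and has no test in the main comparison. With the filter lifted, its log2 fold change was −0.49 with an adjusted p of 0.632, and the log2 ratio of the mean CPM was −0.61. Counting error alone gives a coefficient of variation (CV) of 33.3% for each library at this depth. The CV between mice of a genotype was 48.5%, and a difference of this size was not called.

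Dcx is the microtubule-associated protein by which migrating neuroblasts and immature neurons are usually recognised. It lies on the X chromosome (ENSMUSG00000031285, 143855842 to 143933311, minus strand). Its counts were 829, 713, 548, 867 and 522 in WT and 1075, 788, 621, 1000 and 461 in Dp1Tyb. In CPM this was 25.8, 29.7, 29.7, 26.2 and 24.3 in WT and 24.6, 27.6, 24.8, 30.3 and 21.0 in Dp1Tyb. The highest and the lowest mouse, Dp1Tyb 4 and Dp1Tyb 5, were both Dp1Tyb. WT mice averaged 27.1 ± 2.42 CPM and Dp1Tyb mice 25.7 ± 3.47 CPM (SD, n = 5 each), a ratio of 0.948 with an interval of 0.828 to 1.09. The log2 fold change of −0.076 ± 0.090 (SE) had an adjusted p of 0.731. It was −0.015 without Dp1Tyb 5, −0.15 without Dp1Tyb 4 and −0.15 with the choroid plexus score as a covariate, and no alternative called it. The doublecortin-like kinases showed differences of the same order or less, at −0.00023 ± 0.052 (SE) for Dclk1, whose sign turned under several alternatives, and −0.059 ± 0.038 (SE) for Dclk2. A list of 6 markers of neuroblasts from the subventricular zone, another region that makes Dcx-expressing cells, was also read. All 6 were above 0, with a median log2 fold change of 0.25, where 51.3% of all tested genes were below 0. None was called. At an unadjusted p under 0.05 there were 2, both higher, where 14.4% of all tested genes reached that level in either direction. The summed level of the 6 was 36.0 to 44.8 CPM in WT and 43.7 to 50.5 CPM in Dp1Tyb. Dlx1 made up the largest part, with means of 27.5 CPM in WT and 32.4 CPM in Dp1Tyb. Its groups did not overlap (adjusted p = 0.0959 in edgeR), where 3.68% of all tested genes separated in either direction. Whether these 6 genes were read from neuroblasts or from other cells, and their part in the Dcx values, was not tested.

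Igfbpl1, an insulin-like growth factor binding protein-like gene with high expression in neuroblasts, and Draxin, a secreted axon guidance protein, were both low. Igfbpl1 lies on chromosome 4 (ENSMUSG00000035551, 45809468 to 45826923, minus strand), and its counts were 46, 26, 19, 42 and 24 in WT and 29, 34, 37, 28 and 23 in Dp1Tyb. The WT mice fell within 1.03 to 1.43 CPM, inside the wider Dp1Tyb range of 0.66 to 1.48 CPM. Its log2 fold change was −0.23 ± 0.22 (SE), with an interval of −0.69 to 0.24 and an adjusted p of 0.662. Draxin lies on the same chromosome (ENSMUSG00000029005, 148098437 to 148130698, minus strand), and its counts were 23, 31, 21, 25 and 18 in WT and 36, 20, 25, 33 and 20 in Dp1Tyb. Here the WT range of 0.72 to 1.29 CPM was the wider, against 0.70 to 1.00 CPM in Dp1Tyb. The log2 fold change was −0.075 ± 0.21 (SE), with an interval of −0.53 to 0.38 and an adjusted p of 0.902. Without the 3 libraries lowest in choroid plexus markers, both differences lay just above 0, at 0.0065 for Igfbpl1 and 0.033 for Draxin.

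Of the division genes, Ccnd2 separated the genotypes. Cyclin D2 binds Cdk4 and Cdk6 and is needed for the formation of adult-born neurons. The gene lies on chromosome 6 (ENSMUSG00000000184, 127125162 to 127152193, minus strand), with exons that overlap the antisense genes 9330179D12Rik and Gm43126. It had the most reads of the 10, with 2333, 1789, 1462, 2713 and 1785 in WT and 2723, 2036, 1564, 2265 and 1579 in Dp1Tyb. In CPM the values were 72.5, 74.4, 79.3, 82.1 and 83.2 in WT and 62.4, 71.3, 62.5, 68.6 and 72.0 in Dp1Tyb, so the groups did not overlap, although WT 1 and Dp1Tyb 5 lay side by side. WT mice averaged 78.3 ± 4.69 CPM and Dp1Tyb mice 67.4 ± 4.64 CPM (SD, n = 5 each), a ratio of 0.86 with an interval of 0.792 to 0.934. On the log2 scale the difference was −0.22 ± 0.055 (SE), with an adjusted p of 0.0837 in edgeR and 0.0141 in DESeq2. Over all alternatives the adjusted p ran from 0.0141 to 0.252, and leaving out any 1 mouse kept the difference between −0.24 and −0.19. It was −0.18 with the choroid plexus score as a covariate and −0.21 without the 3 libraries lowest in choroid plexus markers, with adjusted p-values of 0.216 and 0.252.

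The other D cyclins had smaller or less certain differences. Ccnd1, which is also expressed in glia and their precursors, averaged 36.2 ± 3.19 CPM in WT mice and 34.6 ± 2.77 CPM (SD, n = 5 each) in Dp1Tyb mice, with a log2 fold change of −0.067 ± 0.069 (SE). Ccnd3 had a log2 fold change of −0.18 ± 0.14 (SE), which became 0.00086 with the choroid plexus score as a covariate. The kinase partner Cdk4 differed by −0.13 ± 0.046 on the log2 scale (SE, adjusted p = 0.229), the inhibitor Cdkn1b (p27) one of −0.13 ± 0.061 (adjusted p = 0.356), and Rb1, the substrate of the cyclin D kinases, one of −0.094 ± 0.052 (adjusted p = 0.43).

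Mki67 encodes the Ki-67 protein that coats mitotic chromosomes. It lies on chromosome 7 (ENSMUSG00000031004, 135689784 to 135716361, minus strand), and its counts were 150, 145, 83, 174 and 110 in WT and 199, 126, 116, 179 and 132 in Dp1Tyb. Levels were 4.5 to 6.03 CPM in WT and 4.41 to 6.02 CPM in Dp1Tyb, nearly the same range. The log2 fold change was −0.036 ± 0.12 (SE), with an interval of −0.29 to 0.21 and an adjusted p of 0.913, and its sign turned in some of the alternatives.

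Top2a, the topoisomerase of dividing cells, lies on chromosome 11 (ENSMUSG00000020914, 98992943 to 99024189, minus strand). Its counts were 46, 87, 36, 73 and 32 in WT and 73, 43, 53, 61 and 90 in Dp1Tyb. In CPM the values were 1.43, 3.62, 1.95, 2.21 and 1.49 in WT and 1.67, 1.5, 2.12, 1.85 and 4.11 in Dp1Tyb. In each genotype 1 mouse stood above the others, WT 2 and Dp1Tyb 5. The log2 fold change was 0.043 ± 0.31 (SE), with an interval of −0.62 to 0.70 and an adjusted p of 0.965. It was −0.26 without Dp1Tyb 5 and 0.31 without WT 2. The sign also turned without WT 1 (−0.083), without WT 5 (−0.055) and in voom (−0.0036). Top2b, a related gene that is also expressed in cells that no longer divide, was far more abundant. It averaged 118 ± 3.56 CPM in WT mice and 116 ± 9.46 CPM (SD, n = 5 each) in Dp1Tyb mice, with a log2 fold change of −0.021 ± 0.051 (SE).

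**Figure D3:**
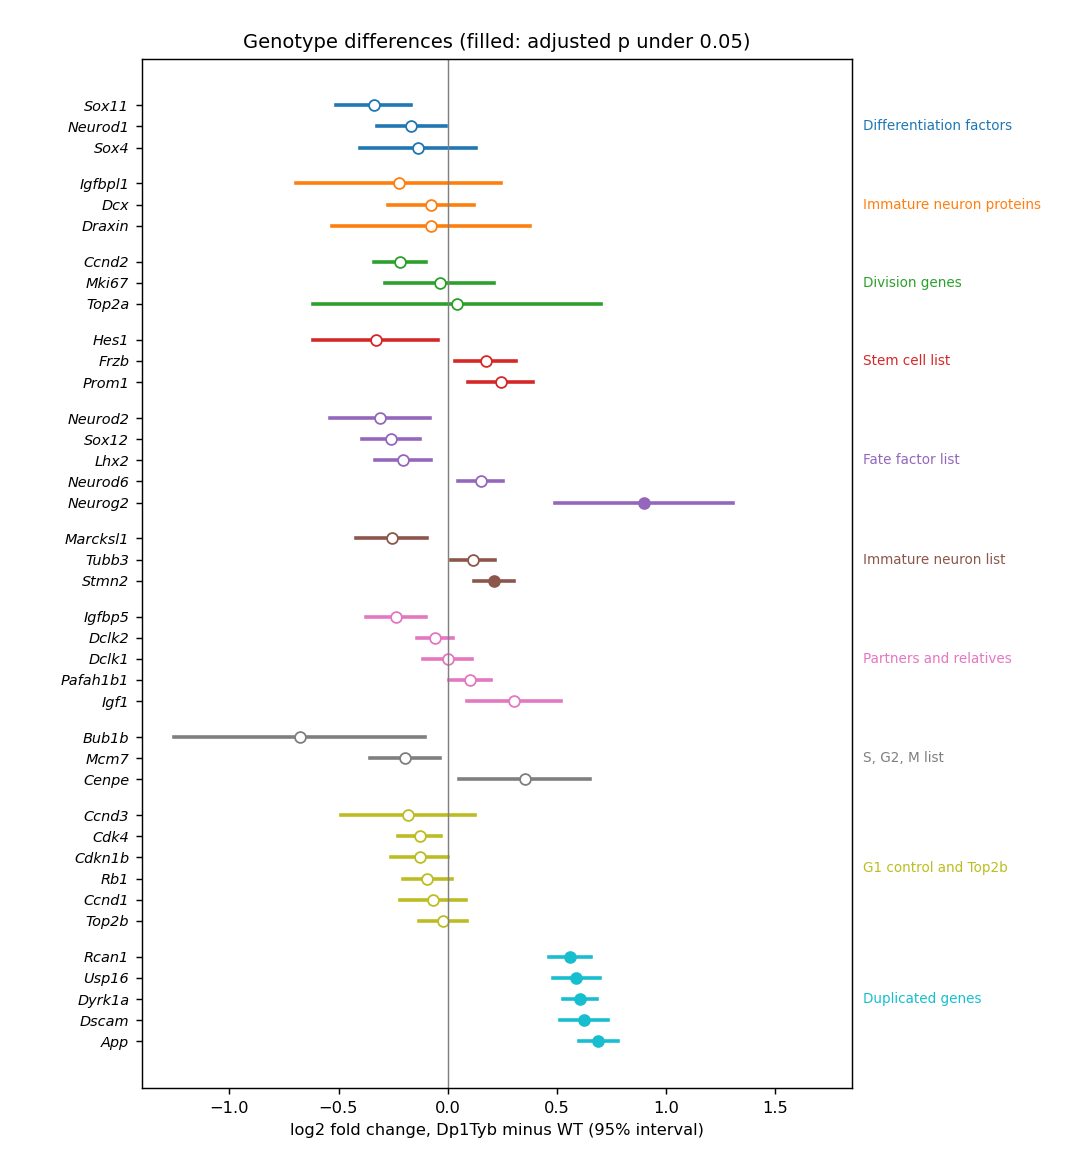
Log2 fold change (Dp1Tyb minus WT) with its 95% interval for the 9 tested genes and for the other genes named in the text, coloured by list. Filled points have an adjusted p under 0.05 in edgeR: Neurog2, Stmn2 and the 5 duplicated genes.

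Further genes of the same pathways were read from 6 lists, of neural stem cells, neuronal fate factors, immature neurons, partners and relatives of Dcx, Draxin and Igfbpl1, S, G2 and M phase, and G1 control. Of their 110 genes 106 were tested and 2 were called, which is 1.89% against 1.11% of all tested genes. At an unadjusted p under 0.05 there were 27, of which 12 were higher and 15 lower in Dp1Tyb, which is 25.5% against 14.4% of all tested genes. The median log2 fold change over the 106 was −0.015.

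Both genes that were called were higher in Dp1Tyb. Neurog2, a proneural bHLH factor that acts upstream of Neurod1 in the glutamatergic lineage and is expressed in progenitors, had 23, 17, 14, 31 and 20 reads in WT and 69, 44, 32, 39 and 45 in Dp1Tyb. The levels were 0.715, 0.707, 0.759, 0.938 and 0.933 CPM in WT and 1.58, 1.54, 1.28, 1.18 and 2.05 CPM in Dp1Tyb, without overlap. Neurog2 thus differed by 0.90 ± 0.19 (SE) on the log2 scale, with an adjusted p of 0.0384. The call rests on few reads: its adjusted p was above 0.05 in 9 of the 10 fits that left out 1 mouse, with values of 0.0354 to 0.0977 over the 10, and it was 0.157 without the 3 libraries lowest in choroid plexus markers. Stmn2, a tubulin-binding protein of growing axons, rose in Dp1Tyb mice to 323 ± 9.38 CPM, from 279 ± 16.8 CPM (SD, n = 5 each) in WT mice, with a log2 fold change of 0.21 ± 0.043 (SE) and an adjusted p of 0.0307. All WT mice lay at or below 297 CPM and all Dp1Tyb mice at or above 316 CPM. Dcx, by contrast, averaged 27.1 CPM in WT and 25.7 CPM in Dp1Tyb. Whether the Stmn2 reads came from immature or from mature neurons was not tested. The adjusted p of Stmn2 ran from 0.0304 to 0.0909 when 1 mouse was left out, with the call lost in 6 of 10 fits, and was 0.116 without the 3 libraries.

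None of the other listed genes was called in edgeR, while DESeq2 called 4 of them: Sox12, given above, Igfbp5 (adjusted p = 0.021), Marcksl1 (0.0342) and Lhx2 (0.0398). In the stem cell list 10 of 15 tested genes were above 0 and the median log2 fold change was 0.058, and the genes with the lowest p were Prom1 at 0.24 ± 0.069 (SE), Frzb at 0.17 ± 0.065 and the Notch target Hes1 at −0.33 ± 0.13. In the fate factor list 11 of 14 were below 0, with a median of −0.13, where 51.3% of all tested genes were below 0. At an unadjusted p under 0.05 it held 9, the most of the 6 lists, with 6 lower and 3 higher. Of all tested genes 14.4% reached that level. The LIM factor Lhx2, which shapes the early hippocampus, was at −0.21 ± 0.059 (SE, adjusted p = 0.131). The immature neuron list had a median of 0.040, with Tubb3, a neuronal tubulin, at 0.12 ± 0.048 (SE) and Marcksl1, an actin-binding membrane protein, at −0.26 ± 0.075. Among partners and relatives the median was −0.028, with the growth factor Igf1 at 0.30 ± 0.10 (SE), the binding protein Igfbp5 at −0.24 ± 0.063 and Pafah1b1 (Lis1), which acts with Dcx in neuronal migration, at 0.10 ± 0.045. Igf1 and Igfbp5 had adjusted p-values of 0.19 and 0.0997 in edgeR. That of Igfbp5 was 0.0218 without WT 5, the only fit leaving out 1 mouse in which it was called.

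The S, G2 and M phase list is the closest in kind to Mki67 and Top2a. Of its 36 genes 34 were tested, 12 above 0 and 22 below, with a median of −0.028. At an unadjusted p under 0.05 there were 3: the spindle checkpoint kinase Bub1b at −0.68 ± 0.27 (SE, adjusted p = 0.279), the kinetochore motor Cenpe at 0.35 ± 0.14 (adjusted p = 0.283) and the replication helicase subunit Mcm7 at −0.20 ± 0.075 (adjusted p = 0.266). The summed level of the list was 159 to 174 CPM in WT and 155 to 165 CPM in Dp1Tyb. This sum was weighted to Pcna, Rrm1 and Mcm6, which averaged 30.0, 17.9 and 17.1 CPM in WT mice. Cdk1, Ccnb1 and Aurkb, at 0.42, 0.39 and 0.41 CPM in WT mice, added little to it. The median deviation of the listed genes from their genotype mean was highest, among WT mice, in WT 2 (0.077 on the log2 scale), with WT 3 close behind at 0.056. Among Dp1Tyb mice it was highest in Dp1Tyb 5 (0.14). Top2a was also highest in WT 2 and Dp1Tyb 5, but stood at 1.95 CPM in WT 3.

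Markers of other cells were read beside these results, and none of them was called. The 10 choroid plexus markers were all below 0, with a median log2 fold change of −0.92 and no unadjusted p under 0.05. The 5 endothelial markers were all below 0 (median −0.11, 3 at an unadjusted p under 0.05, 195 to 214 CPM summed in WT and 183 to 195 in Dp1Tyb), and the 6 microglial markers had a median of −0.11 (225 to 247 and 178 to 241 CPM). Oligodendrocyte precursors, the other main dividing cells of the adult brain, had a median of −0.018 over 5 markers and summed levels of 192 to 208 CPM in WT and 190 to 202 CPM in Dp1Tyb. Ependymal markers summed to 18.5 to 38.1 CPM in WT and 19.2 to 36.3 CPM in Dp1Tyb, with 3 of 6 higher at an unadjusted p under 0.05. The thalamic markers summed to 78.2 to 87.4 and 78.4 to 83.9 CPM, and those of Cajal-Retzius cells, of which 2 of 4 could be tested, to 74.3 to 108 and 79.4 to 114 CPM. No marker in any of these lists was at 0 in all libraries. Of the 8 hippocampal markers, 3 had log2 fold changes above 0 and 5 below, with a median of −0.049. Those that mark dentate granule neurons, named here after their values were seen, were lower in Dp1Tyb at an unadjusted p under 0.05: C1ql2 at −0.49 (adjusted p = 0.0906), Prox1 at −0.18 (adjusted p = 0.184) and Dsp at −0.21 (adjusted p = 0.303). The other 5 were Zbtb20 at −0.098, Bok within rounding of 0, Wfs1 at 0.073, Fibcd1 at 0.085 and Grik4 at 0.12. Whether the share of dentate gyrus, choroid plexus or vessels in the tissue has a part in the Sox11 and Ccnd2 values was not tested beyond the choroid plexus fits above.

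Read numbers and the spread between mice were compared for each gene. The spread between mice of a genotype, as a CV, was 6.41% for Ccnd2, 7.94% for Neurod1, 8.11% for Sox11, 11.3% for Dcx, 12.8% for Mki67 and 14.3% for Sox4. Counting error alone would give 2.28%, 4.95%, 6.02%, 3.78%, 8.63% and 7.88% for these genes. Draxin (21.8%, against 20.3% from counting) and Igfbpl1 (22.4% against 18.4%) varied little more than their read numbers allow. Top2a stood apart at 44.6% against 13.1%, and Eomes had 48.5% against 33.3%. For Dcx and Mki67 the 95% intervals of the ratio, 0.828 to 1.09 and 0.82 to 1.16, bound the difference more closely than those of Draxin (0.694 to 1.30), Igfbpl1 (0.618 to 1.18) and Top2a (0.652 to 1.63).

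**Figure D4:**
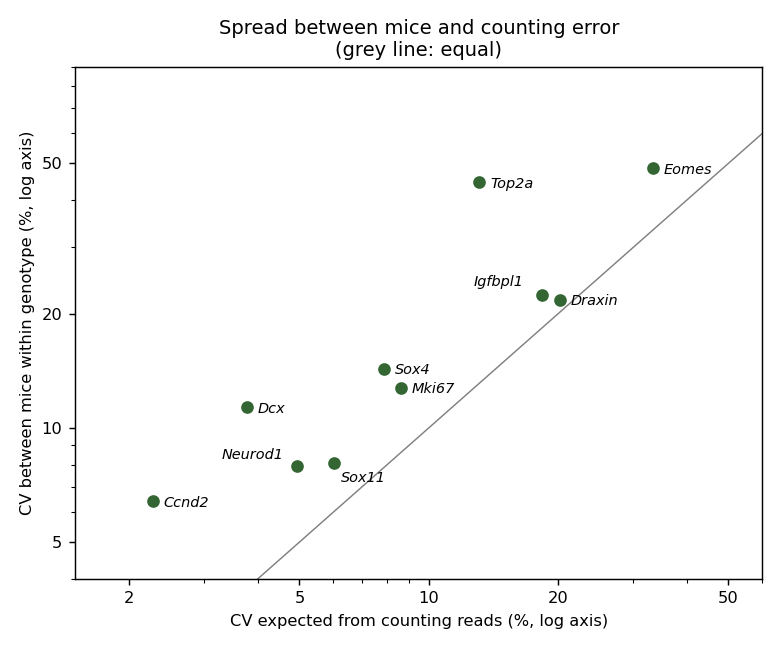
CV between mice within a genotype against the CV expected from counting reads alone, both in percent on log axes, with 1 point per gene and a grey line where they are equal. Draxin lies next to the line at 21.8% against 20.3%, and Top2a lies farthest above it at 44.6% against 13.1%.

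The genes were then compared from mouse to mouse within the genotypes, by the deviation of log2(CPM + 0.1) from the genotype mean. Of the 45 pairs, 25 had a Pearson r above 0, with a median of 0.037 and a range of −0.44 to 0.87 over 10 mice. No pair had an adjusted p under 0.05 (exact permutation within genotypes, adjusted over the 45 pairs), and 4 had an unadjusted p under 0.05. The points of a pair come from the same libraries and share their depth. Sox4 and Ccnd2 had an r of 0.81 (exact permutation p = 0.00264, adjusted 0.119) and a Spearman rho of 0.84 (p = 0.00222 by the same exact permutation, adjusted 0.1), and r was 0.82 without WT 1 and WT 4. Eomes and Sox11 had an r of 0.87 (exact permutation p = 0.00563, adjusted 0.127) and a rho of 0.70, and r was 0.62 without WT 4 and Dp1Tyb 5. Eomes had only 2 to 18 reads per library, with 5 in WT 4 and 2 in Dp1Tyb 5, so counting error weighs on this pair. Mki67 and Top2a had an r of 0.81 (exact permutation p = 0.0101, adjusted 0.152) and a rho of 0.69, but r was 0.28 without WT 2 and Dp1Tyb 5, so that this relation rests on those mice. Neurod1 and Mki67 had an r of 0.72 (exact permutation p = 0.0219, adjusted 0.247) and a rho of 0.81, and r was 0.70 without WT 2 and WT 5.

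**Figure D5:**
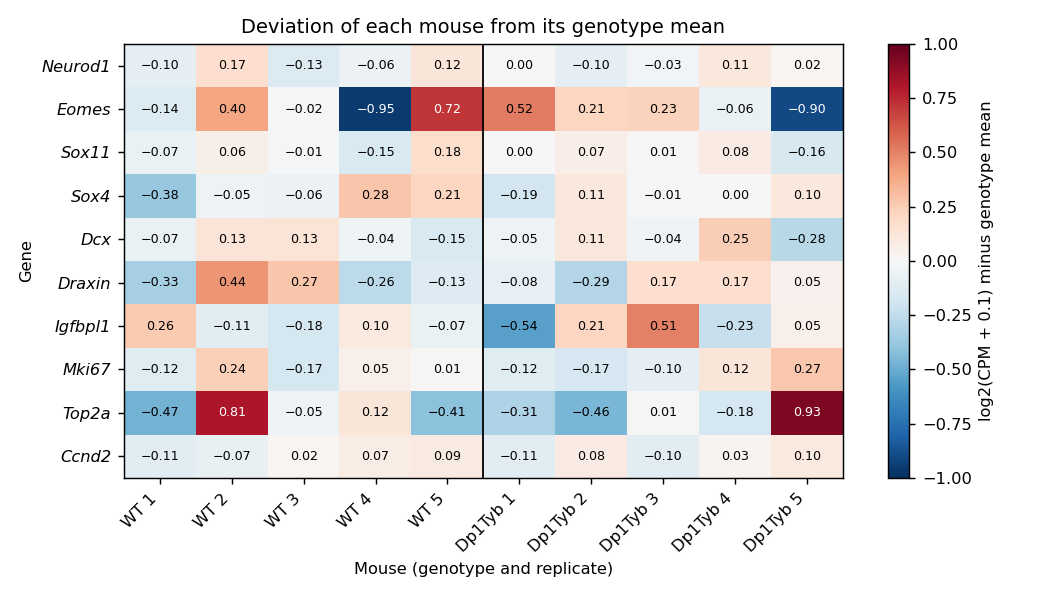
Deviation of each mouse from its genotype mean on the log2(CPM + 0.1) scale, with genes in rows, the 5 WT mice at left and the 5 Dp1Tyb mice at right of the black line. Top2a was high in WT 2 (0.81) and Dp1Tyb 5 (0.93), and Eomes was low in WT 4 (−0.95) and Dp1Tyb 5 (−0.90).

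The deviations of Dcx were also set against those of all other genes. Over the 10 mice and among 15100 genes of at least 1 CPM, the genes whose deviations were most like those of Dcx were Ncl (r = 0.98), Nae1 (0.97), Adgrb3 (0.96), Fam49a (0.96) and Rnf217 (0.96). These correlations are a description without a test, and the highest of so many genes are high by selection. Sox11 ranked 3208 with an r of 0.42 and Neurod1 ranked 7046 with 0.037. Ccnd2, Sox4, Mki67, Top2a and Igfbpl1 had r values of −0.14, −0.15, −0.17, −0.21 and −0.22, at ranks between 8879 and 9668. Of the doublecortin-like kinases, Dclk1 ranked 752 with an r of 0.72 and Dclk2 ranked 13943 with −0.63.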

How the data were processed

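RNA was sequenced from the whole hippocampus of 10 mice, in stranded poly(A) libraries. By their published methods, the authors trimmed reads with Trim Galore, aligned them to GRCm38 with TopHat2 2.0.12, discarded reads with several alignments and counted reads per gene with HTSeq. Their strand setting and annotation release are not given in the sources used here, so genes that overlap others are uncertain, and genes with near copies lose reads. The deposited counts are whole reads per gene, not normalized. A table of normalized values and a table of the authors' own DESeq2 1.6.3 comparison (fold changes and p-values) were not used here.

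Symbols and exon lengths came from GENCODE M21, which matched 42548 of 43629 genes, and upstream sequences from RefSeq (GRCm38.p6). The genotype label of each sample gave its group. Libraries are 1 per mouse, and no pair was the same within sampling noise. The labels give no batch, so no within-batch values could be made. Genes were tested with edgeR 4.0.16 in R 4.3.3 (quasi-likelihood F-test, TMM factors, filterByExpr, no covariates, Benjamini-Hochberg adjustment over 17237 genes, called under 0.05). CPM used TMM-scaled library sizes. Intervals are 95% and p-values of the fit are two-sided. The scripts were tested on simulated data. Alternatives were DESeq2 1.42.0, limma 3.58.1 (voom), other factors, no filter, a replicate block, a choroid plexus covariate and leaving out mice.

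Named genes were the 10, their close relatives, and of each other list every called gene and the 3 with the lowest p. The 10 genes, the lists and this rule were chosen with earlier results of these data known. Counting CVs cover counting error only.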

Additional observations from a re-analysis of the deposited data

Results flagged for a closer look

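Top2a in Dp1Tyb 5, at 4.11 CPM (90 reads), stood far from the other Dp1Tyb mice, which lay between 1.5 and 2.12 CPM: its gap to the nearest mouse was 0.764 of the range of the group, above Dixon's critical value of 0.71 for 5 samples. It was the only mark among the 24 groups of values checked in this way, where chance alone gives about 1.2. In WT, WT 2 stood at 3.62 CPM against 1.43 to 2.21 CPM in the others, within the critical value.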

How the results depend on the processing

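None of the 9 tested genes was called in edgeR or when any 1 mouse was left out, but 2 were called by DESeq2 (Sox11 at −0.34 and Ccnd2 at −0.22) and 1 with the replicate block (Ccnd2, −0.22, adjusted p = 0.0358), which also called Neurod2 (−0.30, adjusted p = 0.0391). Replicate numbers did not pair the mice: same-numbered mice correlated at −0.067 to 0.28, 3 of 5 pairs over 0.1, and 1 mouse matched its own number best. The calls over all genes were 191, 507 in DESeq2, 315 with the block, 108 without the 3 libraries lowest in choroid plexus markers and 105 to 218 without 1 mouse. The calls among the 106 list genes were 2, with 6 in DESeq2, 1 in voom, 1 with the choroid plexus score as a covariate, 0 without the 3 libraries and 0 to 2 without 1 mouse. Of 162 alternative values for the 9 genes, 149 kept direction and side of the threshold, 3 passed it and 10 turned sign. The turns were in Draxin (0.033 without the 3 libraries, −0.17 to 0.064 without 1 mouse), Igfbpl1 (0.0065 without the 3 libraries), Mki67 (0.022 and −0.11 to 0.024) and Top2a (−0.0036 in voom, −0.26 to 0.31 without 1 mouse). For 30 other named genes, 502 of 540 values kept both, 20 lost a call, 7 gained one and 11 turned: Ccnd3 with the choroid plexus covariate (0.00086), Dclk1 in voom (0.00034), without the filter (0.0031), with TMM factors from outside the duplicated segment (0.0011) and without 1 mouse (−0.036 to 0.030), and Top2b without 1 mouse (−0.073 to 0.0073). The 4 correlations named kept their sign in every alternative, and 0 pairs were called with a pseudocount of 1 CPM. The causes were not tested. For Eomes, Draxin and Igfbpl1, read numbers limit what could be seen, and for Top2a the spread between mice.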
